A study of Mus musculus with 48 samples.

Results

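Fgf21, Angptl4, Angptl8 and Creb3l3 were followed through 48 mouse liver transcriptomes: the first 3 encode secreted metabolic hormones made by the liver, and the fourth encodes a liver transcription factor that controls genes of this kind. The 4 were taken by symbol from the 14251 genes of the table, whatever their values. All animals were male C57BL6J mice, studied for 2 weeks. The vehicle group on control diet (n = 10) drank water with 1% ethanol, and the vehicle group on atglistatin (n = 10) drank the same water and ate Teklad 8640 food containing atglistatin, an inhibitor of the lipase ATGL, at 571 mg/kg. The corticosterone group on control diet (n = 14) drank corticosterone, the main rodent glucocorticoid, at 100 ug/ml, and the corticosterone group on atglistatin (n = 14) received both agents. The labels also give each mouse a fed glucose and an insulin value, without units, and a diabetic or nondiabetic state: 9 of 14 corticosterone mice on control diet and 1 of 14 on atglistatin were labelled diabetic, and no vehicle mouse was. The labelled states do not follow a single glucose limit, since a nondiabetic mouse had 242 and a diabetic one 212. Age, cage and collection day were not analysed here.

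FGF21 is released by hepatocytes in fasting, under protein restriction and in other metabolic stress, and signals through an FGF receptor together with the co-receptor beta-klotho. ANGPTL4 and ANGPTL8 are inhibitors of lipoprotein lipase, the enzyme that clears triglyceride from the blood: ANGPTL4 is known as a glucocorticoid and PPAR target that is high in fasting, and ANGPTL8 is known to be induced by feeding and insulin. CREBH, the protein of Creb3l3, is held in the endoplasmic reticulum membrane until it is cut by proteases, and the released part acts with PPARalpha on Fgf21 and on apolipoprotein genes, so its activity is not read from its mRNA alone.

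All 4 are protein-coding genes with positions on GRCm38. Fgf21 lies at chr7:45613886-45615490 on the minus strand, Angptl4 at chr17:33773750-33781830 on the minus strand, Angptl8 at chr9:21835510-21837347 on the plus strand and Creb3l3 at chr10:81084324-81098874 on the minus strand. Angptl8 sits inside Dock6, which runs at chr9:21799860-21852635 on the minus strand, without sharing an exon with it. The 250 bases before the RefSeq start of Fgf21 (chr7:45615491-45615740, minus strand) and of Angptl8 (chr9:21835260-21835509, plus strand, inside Dock6 and outside its exons) are printed because, of the 3 genes with a RefSeq promoter entry (all but Angptl4), these 2 hold TGATGNAA, the core of the element that ATF4 and C/EBP proteins share, which is shown in capitals.
Fgf21: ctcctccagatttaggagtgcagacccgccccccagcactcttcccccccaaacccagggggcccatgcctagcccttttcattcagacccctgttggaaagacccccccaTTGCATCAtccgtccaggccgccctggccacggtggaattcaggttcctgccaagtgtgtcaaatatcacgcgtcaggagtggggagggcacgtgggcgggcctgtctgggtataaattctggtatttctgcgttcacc
Angptl8: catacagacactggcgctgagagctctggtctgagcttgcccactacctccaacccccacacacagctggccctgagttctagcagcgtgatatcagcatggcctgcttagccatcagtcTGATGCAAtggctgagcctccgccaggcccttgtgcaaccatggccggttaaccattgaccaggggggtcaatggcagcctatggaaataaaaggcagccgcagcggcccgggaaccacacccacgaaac
The match is TTGCATCA in Fgf21, on the opposite strand, 139 to 132 bases before the start, and TGATGCAA in Angptl8, 130 to 123 bases before it. Searched on both strands, TGATGNAA is in 3.45% of the 32851 RefSeq promoter windows of this length (GRCm38.p6). Fgf21 also holds CACGTG, the E-box read by ChREBP, USF and clock factors, 50 to 45 bases before the start (6.02% of windows). For Creb3l3, RefSeq gives 2 starts. TGTTCT, the repeated hexamer of glucocorticoid response elements, has 2 matches on the opposite strand before the start near the gene's 5′ end (16.1% of windows hold it), and AGGTCA, the hexamer of many other nuclear receptors, has 1 before the internal start (14%). TGACGT, the core of the cAMP response element, was in none of these windows (6.47% of all). These are matches of letters and no measure of binding.

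The values are CPM, read counts scaled to each library's total with edgeR's TMM method. Library totals ran from 7449109 to 21175603. The 7 hepatocyte marker genes, albumin and transthyretin among them, summed to between 79600 and 150000 CPM in every library, with medians on control diet of 107000 with vehicle and 129000 with corticosterone, and on atglistatin of 99200 and 110000. The 17 measured pancreatic acinar genes summed to 10.8 CPM or less in the lowest libraries of both corticosterone groups but to 9250 in replicate 6 of the vehicle atglistatin group, and 6 libraries carried the pancreatic enzyme gene Cpa1 above 20 CPM. The 11 Kupffer cell and macrophage genes were lower with corticosterone, with median sums of 354 and 290 CPM in the vehicle groups on control and atglistatin diet and of 136 and 111 CPM in the corticosterone groups; their part in the results was not tested. Replicate 41 of the corticosterone atglistatin group (replicate numbers are those of the sample titles) correlated least with the mean of its own group of all 48 libraries (0.9624). The main fold changes and slopes of the 4 genes that include it, and some list results that moved with it, are given with and without it. Since these are whole livers, fewer cells of a type and less RNA per cell cannot be told apart.

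On control diet, all 4 genes were higher after corticosterone. Fgf21 rose most in fold terms, by 16.9-fold from a level near the detection limit, Angptl4 rose 3.16-fold, Angptl8 2.14-fold and Creb3l3 1.22-fold. By edgeR's quasi-likelihood test over 12688 genes with Benjamini-Hochberg adjustment, 4 of 4 passed an adjusted p of 0.05, against 44.2% of all genes in either direction and 22.5% that rose. Fgf21 met the count filter of this fit only through its corticosterone libraries. Its place in the counts called here and on the atglistatin diet is therefore not independent of its rise. Calls were that common under corticosterone, so the sizes and the spread between mice are given for each gene.

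**Figure D1:**
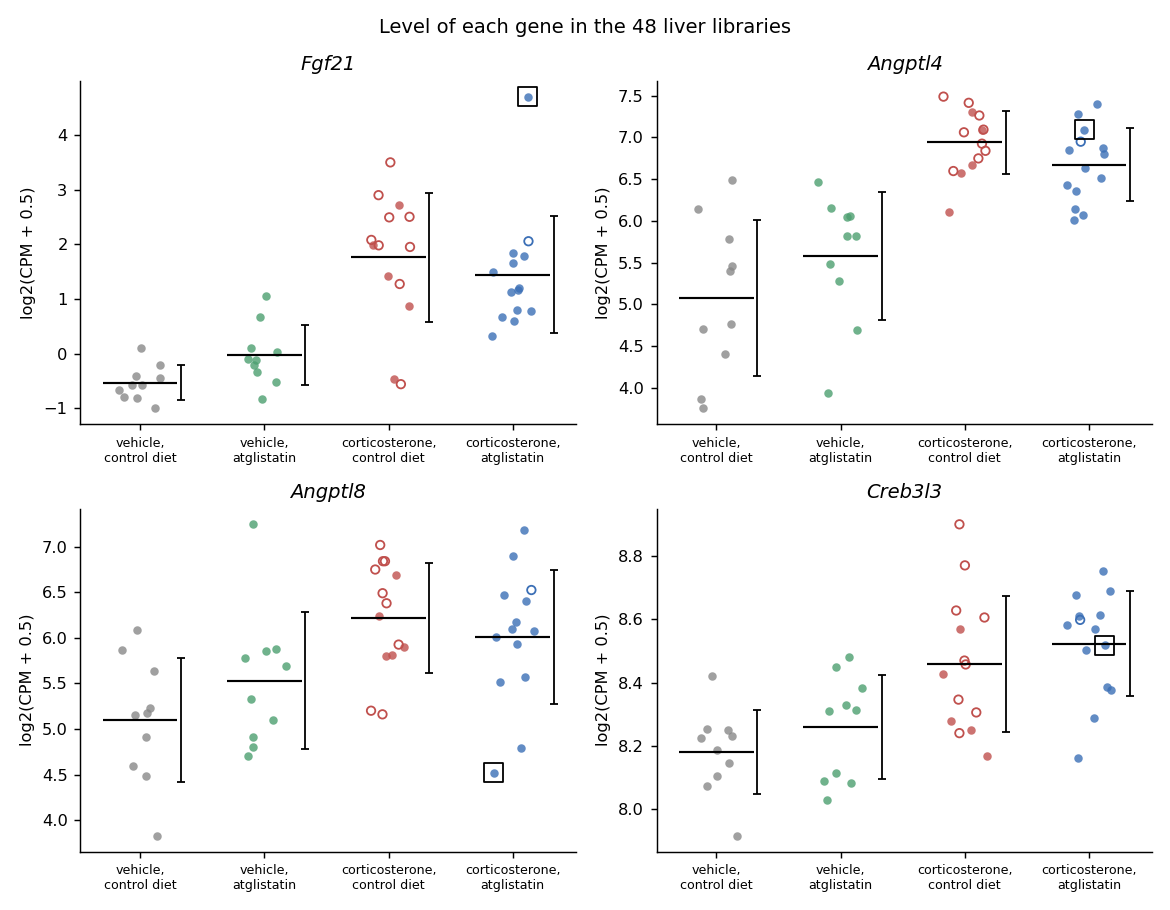
Level of Fgf21, Angptl4, Angptl8 and Creb3l3 in each of the 48 libraries on a log2(CPM + 0.5) axis, by group. Points are mice (open: labelled diabetic), lines are group means, bars are 1 SD, and the boxed point is replicate 41, which is the highest of its group for Fgf21 (25.5 CPM) and the lowest for Angptl8 (22.5 CPM).

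Fgf21 was nearly silent in vehicle livers. Its level there ran from 0 through a median of 0.173 to 0.58 CPM on control diet, which is 0 to 8 reads a library and 28 reads over the 10 libraries. With corticosterone on control diet it ran from 0.18 through 3.47 to 10.8 CPM, or 2 to 116 reads. The groups overlapped: 12 of 14 corticosterone libraries lay above every vehicle library, and replicates 49 and 50 stayed within the vehicle range at 0.225 and 0.18 CPM. In those same 2 livers Angptl4 was at 101 and 96.3 CPM, above every vehicle control library, so the low Fgf21 was not shared by that gene. One of the pair was labelled nondiabetic with a glucose of 131 and the other diabetic with 274. The log2 fold change was 4.08 ± 0.68 (SE; edgeR adjusted p = 2.03e-06).

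Angptl4 ran from 13 through 34.2 to 89 CPM in vehicle mice on control diet and from 68.5 through 127 to 179 CPM after corticosterone. The spread in vehicle mice was wide (39.9 ± 25.2 CPM, SD, n = 10), and narrower in proportion after corticosterone (126 ± 31.6, n = 14), where 13 of 14 libraries lay above every vehicle library. The log2 fold change was 1.66 ± 0.25 (edgeR adjusted p = 4.08e-07).

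Angptl8 ran from 13.7 through 35.4 to 67.2 CPM in vehicle mice and from 35.3 through 78.9 to 129 CPM after corticosterone, and 8 of 14 libraries lay above every vehicle library. The log2 fold change was 1.10 ± 0.28 (edgeR adjusted p = 0.00122). Without the samples labelled diabetic, which leaves 5 corticosterone mice on this diet, it was 0.88 with an adjusted p of 0.06. Dock6, the gene around Angptl8, fell over the same comparison by 0.36 ± 0.10 on the log2 scale (edgeR adjusted p = 0.00245), from 14.7 ± 1.93 to 11.4 ± 1.91 CPM, so the host gene moved the other way.

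Creb3l3 ran from 241 through 295 to 342 CPM in vehicle mice and from 287 through 348 to 477 CPM after corticosterone. It was the steadiest of the 4, with an SD of 9.21% of the mean in vehicle mice, and its shift was small beside those of the 3 secreted factors: log2 fold change 0.29 ± 0.07 (edgeR adjusted p = 0.00146), with 8 of 14 libraries above every vehicle library. The summed hepatocyte markers were higher too, with medians of 107000 and 129000 CPM, and their part in this small shift was not tested. Without the diabetic-labelled samples it was 0.14 (adjusted p = 0.254), and the call was lost.

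On the atglistatin diet, the same steroid comparison called 3 of 4 genes, all higher, against 36.7% of all genes in either direction and 19% that rose. Vehicle mice on atglistatin had Fgf21 from 0.0628 through 0.431 to 1.58 CPM, and corticosterone mice from 0.754 through 1.77 to 25.5 CPM. All 14 corticosterone livers were above the vehicle mean, and 9 of 14 lay above every vehicle library. The log2 fold change of Fgf21 was 2.74 ± 0.56 (edgeR adjusted p = 0.000116) and, without replicate 41, 1.83 ± 0.43 (adjusted p = 0.000598).

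Angptl4 on this diet ran from 14.8 through 56 to 88.1 CPM with vehicle and from 64.1 through 105 to 168 CPM with corticosterone, a log2 fold change of 1.01 ± 0.25 (edgeR adjusted p = 0.000969). Creb3l3 ran from 261 through 318 to 357 CPM and from 286 through 381 to 431 CPM, a log2 fold change of 0.26 ± 0.07 (edgeR adjusted p = 0.0043). The 2 groups overlapped for both genes. Without replicate 41 the log2 fold changes were 0.97 for Angptl4 (edgeR adjusted p = 0.00161) and 0.26 for Creb3l3 (edgeR adjusted p = 0.0055).

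Angptl8 was the exception. It ran from 25.6 through 45.5 to 151 CPM with vehicle and from 22.5 through 67.3 to 145 CPM with corticosterone, and its log2 fold change of 0.43 ± 0.27 was not called (edgeR adjusted p = 0.225; 95% interval -0.11 to 0.97 from the SE). That value turned on 1 vehicle liver, replicate 11, at 151 CPM when the next was 58.4. Without it the log2 fold change was 0.77 (adjusted p = 0.0175). Replicate 11 is also among the 6 libraries with Cpa1 above 20 CPM (37.8 CPM), and without all 6 the value was 0.76 (adjusted p = 0.0268). What part pancreatic RNA has in its Angptl8 level was not tested: replicate 6, with Cpa1 at 998 CPM, had Angptl8 at 39.8 CPM. Leaving out only replicate 41, the corticosterone liver lowest in Angptl8, gave a log2 fold change of 0.5 (edgeR adjusted p = 0.14).

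**Figure D2:**
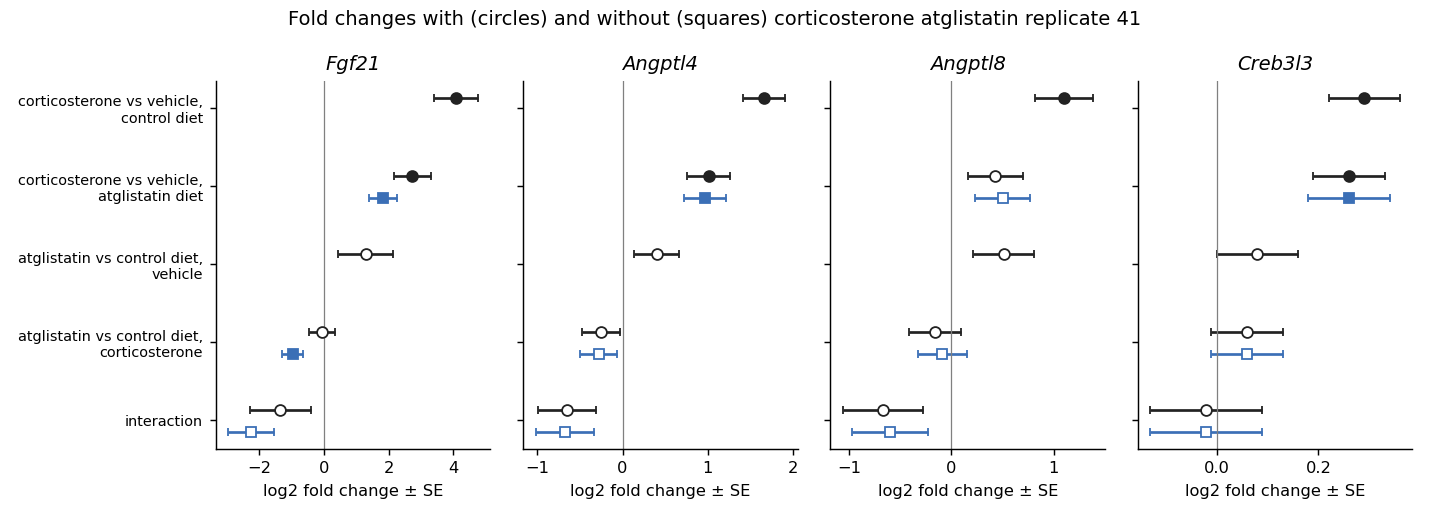
Log2 fold changes from edgeR with their standard errors for the 4 genes in 5 comparisons, with all libraries (circles) and without replicate 41 of the corticosterone atglistatin group (squares, where it enters). Filled symbols have an adjusted p of at most 0.05; the scale differs between panels. Leaving out replicate 41 moves the diet difference of Fgf21 under corticosterone from -0.06 to -0.96.

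Atglistatin alone called none of the 4 genes, in vehicle or in corticosterone mice. In vehicle mice 3.13% of all genes were called. The log2 fold changes there were all positive, at 1.29 ± 0.84 for Fgf21, 0.40 ± 0.26 for Angptl4, 0.51 ± 0.30 for Angptl8 and 0.08 ± 0.08 for Creb3l3 (edgeR adjusted p from 0.404 to 0.677). Without replicate 11 the Angptl8 difference was 0.17. The Fgf21 estimate rests on 1 to 20 reads a library on atglistatin and 0 to 8 on control diet, and its 95% interval ran from -0.37 to 2.94. In a fit of the vehicle groups alone Fgf21 did not meet the count filter. Replicate 6, the library richest in pancreatic transcripts, had the highest Fgf21 of that group, and without the 6 libraries rich in Cpa1 the Fgf21 difference was 0.84 ± 1.03 (edgeR adjusted p = 0.816).

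In corticosterone mice 11.7% of all genes were called between the diets. The log2 fold changes of atglistatin against control diet were -0.06 ± 0.41 for Fgf21, -0.25 ± 0.22 for Angptl4, -0.16 ± 0.25 for Angptl8 and 0.06 ± 0.07 for Creb3l3 (edgeR adjusted p from 0.527 to 0.956). DESeq2 and limma voom also called 0 of 4 in either diet comparison, and no unadjusted edgeR p was under 0.05. Without replicate 41 the corticosterone values of Angptl4, Angptl8 and Creb3l3 were -0.28, -0.09 and 0.06 (edgeR adjusted p from 0.457 to 0.863).

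For Fgf21 the comparison of diets depended on a single liver. With all 14 libraries the means were nearly equal, 3.86 ± 2.86 CPM on control diet and 3.63 ± 6.36 on atglistatin, but the medians were 3.47 and 1.77 CPM. Without replicate 41 the atglistatin group had 1.94 ± 0.916 CPM (n = 13), a highest value of 3.66 and a log2 fold change of -0.96 ± 0.33 (edgeR adjusted p = 0.0415). That call was not shared by the other tools: without replicate 41, DESeq2 gave -0.99 (adjusted p = 0.0639) and limma voom -0.64 (adjusted p = 0.215). Leaving out the diabetic-labelled mice as well gave -0.59 (edgeR adjusted p = 0.457), with 5 control-diet mice left.

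The interaction, which asks whether atglistatin changed the effect of corticosterone, called 0 of 4 genes, against 1.43% of all genes. It was negative for all 4 genes: -1.34 ± 0.94 for Fgf21, -0.65 ± 0.34 for Angptl4, -0.67 ± 0.39 for Angptl8 and -0.02 ± 0.11 for Creb3l3 (edgeR adjusted p from 0.46 to 0.978; 0 of 4 also by DESeq2 and limma voom, and no unadjusted edgeR p under 0.05). So the loss of the Angptl8 call on the atglistatin diet is not shown to differ from its rise on control diet. Without replicate 41 the Fgf21 interaction was -2.25 ± 0.70 (edgeR adjusted p = 0.0839). DESeq2 then called it at -2.35 (adjusted p = 0.0226) and limma voom did not, at -1.91 (adjusted p = 0.337). Those of Angptl4, Angptl8 and Creb3l3 were then -0.68, -0.6 and -0.02 (edgeR adjusted p from 0.409 to 0.971).

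Replicate 41 stood apart in more than Fgf21. Its Fgf21 was 25.5 CPM (417 reads), against 0.754 to 3.66 in the other 13 libraries, its Angptl8 of 22.5 CPM was the lowest of the group, and its Angptl4 (136 CPM) and Creb3l3 (366 CPM) lay inside the range of the others. Its insulin label of 2.192 was the lowest of the 14, where the median was 13.84, and its glucose was 106. It was the highest of the 14 for 19.5% of all genes tested and the lowest for 18.9%.

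Of 15 genes linked to CREBH, 8 were highest in this liver (53.3%, against 19.5% of all genes tested) and none lowest. Cidec, a lipid droplet protein, was at 70.4 CPM against 0.322 to 2.57 in the other 13, Apoa4, an apolipoprotein of triglyceride-rich particles, at 4650 against 158 to 737, and Apoc2, the activator of lipoprotein lipase, at 18.7 against 2.81 to 10.5. Of 14 insulin, SREBP1c and ChREBP target genes none was highest and 8 were lowest: Pklr, the glycolytic pyruvate kinase of liver, was at 34.8 CPM against 90.8 to 300, and Thrsp, a lipogenic gene, at 164 against 293 to 1170. Of 17 PPARalpha targets 3 were highest and 3 lowest (17.6% each), close to the 19.5% and 18.9% of all genes tested. Of 20 regulators known to act on the 4 genes 3 were highest and 9 lowest, with Ppara, Hnf4a and Nr3c1 among the lowest. Of 16 glucocorticoid receptor targets 7 were highest and 3 (Tdo2, Tsc22d3 and G6pc) lowest. The highest included Igfbp1, a binding protein known to be repressed by insulin, at 471 CPM against 7.26 to 50.7, and Lcn2, an acute-phase protein, at 465 against 6.2 to 34.9. Of 8 genes of the amino acid and integrated stress response 2 were highest (25%) and 0 lowest. That share was close to the 19.5% of all genes tested that were highest. The 2 were Trib3 (8.33 CPM against 1.75 to 4.5) and Nupr1 (4.47 against 0.347 to 1.49).

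Markers of other cells moved too. The 11 Kupffer cell and macrophage genes summed to 431 CPM in replicate 41, where the group ran from 78.3 through a median of 111, with Marco at 77.4 CPM against at most 19.5 in the others. Timd4 alone of them (1.22 CPM, at most 2.13 in the others) was not highest in replicate 41. The 6 stellate genes summed to 369 CPM (group median 273) and the 7 sinusoidal endothelial genes to 216 (median 166). Of the stellate sum, 311 CPM was Dcn, which was at most 258 in the others. Lrat, Col1a1 and Col3a1 were also highest in replicate 41, while Reln (13.7 CPM, at most 21.4 in the others) and Des (2.33, at most 3.34) were not. The endothelial excess was mainly Lyve1, at 82.4 CPM against at most 26.3. The other 6 genes summed to 133 CPM, within the 125 to 176 of the other livers. Among them Pecam1 (10.5 CPM against at most 8.69) and Stab1 (12.4 against at most 11.9) were highest in replicate 41. Clec4g and Mrc1 lay inside the range of the others, and Kdr (27.7) and Stab2 (11.1) were below their medians of 42.9 and 12.9. The 6 measured adipocyte genes of 9 summed to 123 CPM (median 25.5), nearly all of it Cidec and Fabp4, while the defining adipocyte genes Adipoq and Retn were at 0. The acinar genes were at their group's lowest, 9.61 CPM. The 7 hepatocyte genes summed to 93900 CPM (group median 110000). Cyp2e1 (218 CPM), Serpina1c (4380) and Ttr (8590) were below the medians of the others, 1330, 11000 and 13300. Alb and Cps1 were also below theirs, while Tat was above and Apoa1 was highest (11300 against at most 10000). The part of the macrophage, stellate and hepatocyte genes in the other values of this liver was not tested.

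**Figure D3:**
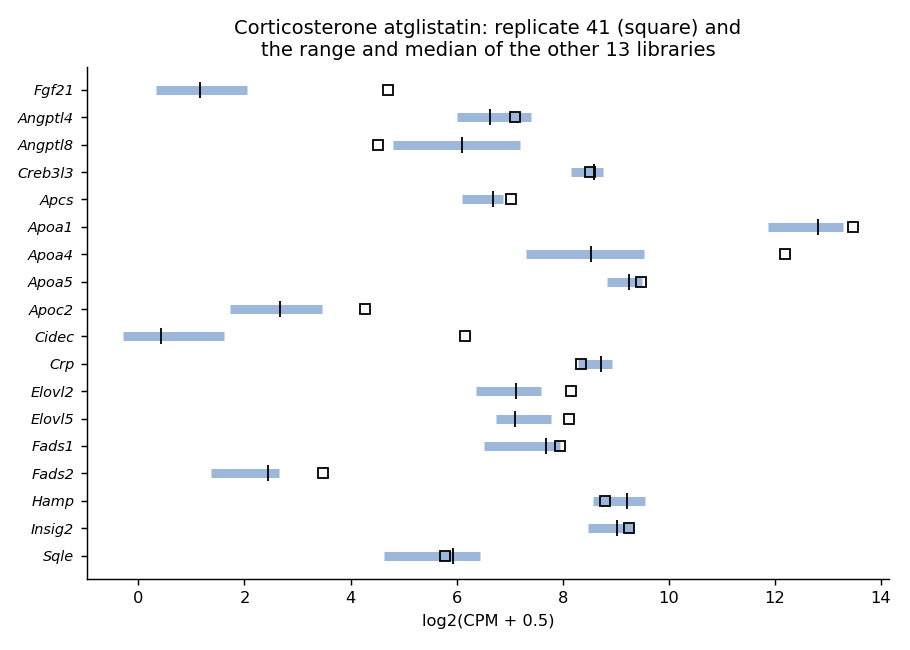
Levels in the corticosterone atglistatin group, on a log2(CPM + 0.5) axis, of the 4 genes and 14 of the 15 genes linked to CREBH: bars span the other 13 libraries, ticks are their median and squares are replicate 41. Fgf21, Cidec, Apoa4 and Apoc2 lie beyond the bars, while Creb3l3 lies within.

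Within groups, no relation of a gene to the glucose or insulin labels passed. Over 32 relations (4 genes, 2 labels, 4 groups; Pearson and Spearman with permutation p, and only the larger cluster where a gap of over 0.3 of the range split the label) 0 passed after Benjamini-Hochberg adjustment. The smallest unadjusted p was for Angptl8 and glucose in 10 corticosterone mice on control diet (r = -0.63, permutation p = 0.0321, adjusted p = 0.485; rho = -0.35, permutation p = 0.334, adjusted p = 0.891). It rests on the 2 mice farthest from the median, since r without them was 0.33.

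The edgeR slope on log2 insulin in the corticosterone atglistatin group called 1 of 4 genes, against 5.83% of all: Fgf21 at -0.77 ± 0.16 per doubling of insulin (adjusted p = 0.0104). Without replicate 41 the slope was 0.03 ± 0.18 (edgeR adjusted p = 0.94), and the genes called across the table went from 636 to 0. The slopes of Angptl4, Angptl8 and Creb3l3 were -0.01, 0.30 ± 0.14 and 0.04 (edgeR adjusted p from 0.191 to 0.946). Without replicate 41 they were 0.1, 0.16 and 0.07 (edgeR adjusted p from 0.511 to 0.677). By rank, Fgf21 and insulin gave rho = -0.24 over the 14 mice (permutation p = 0.411, adjusted p = 0.929). On the insulin label without log2, Pearson r was -0.32 (permutation p = 0.279, adjusted p = 0.766). Leaving out replicate 41 gave rho = -0.05 (permutation p = 0.876, adjusted p = 0.941) and r = 0.01 (permutation p = 0.96, adjusted p = 0.96).

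**Figure D4:**
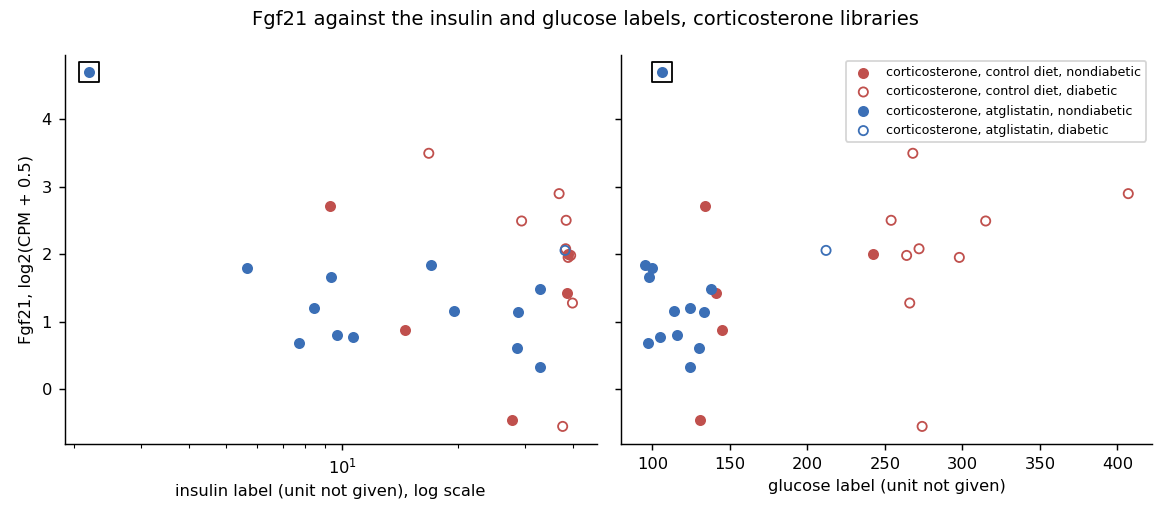
Fgf21 in log2(CPM + 0.5) against the insulin label (log axis) and the glucose label in the 28 corticosterone libraries, by diet and diabetic label. Replicate 41 (boxed) combines the lowest insulin, 2.192, with the highest Fgf21, and without it the slope on log2 insulin in the atglistatin group was 0.03 ± 0.18.

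No difference by the diabetic label was called within the corticosterone mice on control diet. Fgf21 was 0.225, 1.34, 2.17, 3.49 and 6.06 CPM in the 5 nondiabetic livers and ran from 0.18 through 3.73 to 10.8 CPM in the 9 diabetic ones. Angptl4 was 111 ± 34.9 and 134 ± 28.2 CPM, Angptl8 69.7 ± 20.5 and 85.3 ± 34.6, and Creb3l3 325 ± 36.7 and 372 ± 58.1 (SD, n = 5 and 9). All 4 means were higher with the label and all ranges overlapped. The edgeR log2 differences were 0.70 ± 0.57, 0.27 ± 0.18, 0.29 ± 0.29 and 0.19 ± 0.12 (adjusted p = 0.992 each). Single mice moved these differences: leaving out 1 at a time they ran from 0.42 (without replicate 49) to 1.30 (without replicate 33) for Fgf21, from 0.14 (without replicate 29) to 0.42 (without replicate 36) for Angptl4, from 0.19 (without replicate 50) to 0.48 (without replicate 29) for Angptl8 and from 0.14 to 0.26 for Creb3l3. None of 12003 genes (0%) was called by edgeR, DESeq2 or limma voom, and 448 had an unadjusted edgeR p under 0.05.

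The genes were also compared with each other inside each group (24 relations, permutation p, Benjamini-Hochberg over the 24). Angptl4 and Creb3l3 varied together in the 10 vehicle livers on control diet (r = 0.84, permutation p = 0.00115, adjusted p = 0.0276; rho = 0.89, permutation p = 0.00132, adjusted p = 0.0317), and r was 0.91 without the 2 farthest. In the other 3 groups r was 0.37, -0.10 and 0.36, and without the 2 farthest 0.77, 0.06 and 0.51. Whether the groups differ was not tested. Angptl4 and Angptl8 were negatively correlated in both corticosterone groups, with 1 of the 2 passing and by Pearson only: r was -0.66 on control diet (permutation p = 0.0109, adjusted p = 0.0872) and -0.72 on atglistatin (permutation p = 0.00397, adjusted p = 0.0476), with rho of -0.65 (adjusted permutation p = 0.175) and -0.60 (adjusted permutation p = 0.203). Without replicate 41 the second r was -0.71 (adjusted permutation p = 0.0677). In vehicle mice r was 0.00 and 0.02.

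**Figure D5:**
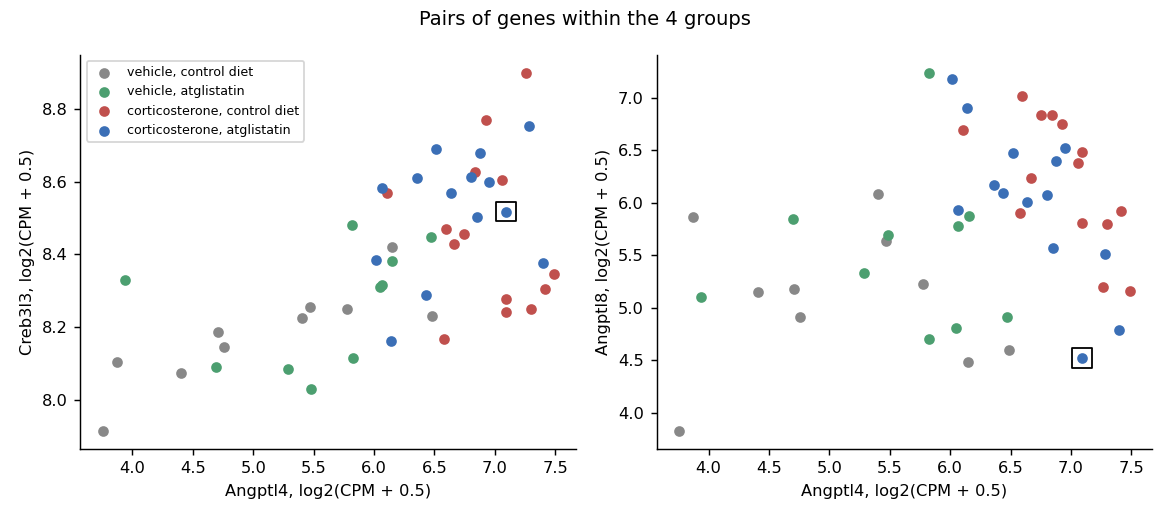
Creb3l3 and Angptl8 against Angptl4, all in log2(CPM + 0.5), for the 48 livers coloured by group, with replicate 41 boxed. The vehicle control-diet livers line up in the first panel (r = 0.84), and Angptl8 is lower where Angptl4 is higher in the corticosterone livers of the second (r = -0.66 and -0.72).

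The genes whose level was most like each member were taken by Spearman rho over the 48 libraries among 8252 genes with a mean of at least 5 CPM, as a description that follows mainly the split by corticosterone. For Fgf21 they were Morc4 (0.84), Alpl (0.83), Mgll (0.83), Tmem41a (0.82) and Ddhd2 (0.81); Mgll encodes monoglyceride lipase, the last step of lipolysis. For Angptl4 they were Fkbp5 (0.90), a glucocorticoid receptor co-chaperone and classic target, then Pdha1, St3gal5, Alpl and 1810055G02Rik (0.89 each). For Angptl8 they were weaker, led by Map3k7 and Pdik1l (0.71), Pllp (0.70), Rdh7 (0.69) and Tada1 (0.68). For Creb3l3 the leader was Abcb4 (0.91), the canalicular phospholipid transporter, then Stradb and Acot12 (0.85) and Paip1 and Tmem259 (0.84).

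After each group's mean was subtracted, Abcb4 still led for Creb3l3 (rho = 0.86), followed by Gpbp1l1 (0.81) and Slc25a13, Acbd5 and Tmem94 (0.77). Abcb4 averaged 276 CPM in vehicle mice on control diet, 354 in vehicle mice on atglistatin, 381 with corticosterone and 440 with both. Angptl4 was then most like Ip6k2 and Cpeb2 (0.73), Rgs16 (0.72), and Slc25a47 and 1810055G02Rik (0.69). Angptl8 was most like Ctsh and Proser1 (0.64), and Adh4, Igsf5 and Chd3 (0.62). Fgf21 was most like 4930402H24Rik (0.58), Pdlim7 and Kdsr (0.57), Nedd4 (0.53) and Tgfbr2 (0.52).

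Around the hormone itself, the genes of FGF21 reception and signalling were mixed under corticosterone on control diet: 2 of 10 rose and 2 fell (median log2 fold change -0.16, 0.01 over all genes), close to the 44.2% of all genes called. Klb, the co-receptor beta-klotho, rose by 0.32 ± 0.12 (edgeR adjusted p = 0.0239) and Fgfr3 by 0.39 ± 0.10 (edgeR adjusted p = 0.00107). Egr1, an immediate early gene, fell from 57 ± 59.5 to 2.67 ± 1.27 CPM (log2 fold change -4.43 ± 0.58), and Spry2, a feedback inhibitor, by 0.85 on the log2 scale. The other signalling genes of the list, Frs2, Dusp6 and Spry4, were not called. The activity of the FGF21 signal was not tested. Fgfr4, the main FGF receptor of hepatocytes, was at 13.4 and 11.5 CPM and was not called (edgeR adjusted p = 0.0925). On the atglistatin diet 0 rose and the same pair, Egr1 and Spry2, fell (log2 fold changes -2.78 and -0.62), against 36.7% of all genes called. Replicate 41 held 28.9 CPM of Egr1 against 0.418 to 1.81 in the other 13, and without it Egr1 gave -4.34 ± 0.46 (edgeR adjusted p = 1.22e-10) and Spry2 -0.60. Frs2 (0.24), Dusp6 (0.44) and Spry4 (-0.39) were not called then (edgeR adjusted p from 0.0958 to 0.142). With all libraries, neither diet comparison called any of the 10.

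Among regulators known to act on these genes, 3 of 20 rose and 4 fell on control diet (median 0.01), no larger a share than the 44.2% of all genes called. Ppara, the fatty acid receptor above Fgf21 and Angptl4, fell from 80.5 to 45.6 CPM (log2 fold change -0.82 ± 0.13), and Nr3c1, the glucocorticoid receptor, fell by 0.42 on the log2 scale. Hnf4a, a hepatocyte identity factor, rose by 0.65 and Foxo1, which insulin keeps out of the nucleus, by 0.70. Under corticosterone, atglistatin raised 1 of the 20, Ppara (0.58 ± 0.12, edgeR adjusted p = 0.000794), and lowered 2, Ppard (-0.72) and Foxo1 (-0.32). Of all genes, 11.7% were called there.

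Among the other angiopoietin-like genes and the lipoprotein lipase pathway, 7 of 17 tested rose and 4 fell on control diet (median 0.08). Of all genes, 44.2% were called and 22.5% rose. Apoc3, another brake on lipoprotein lipase, rose from 2840 to 6910 CPM (log2 fold change 1.28 ± 0.15, edgeR adjusted p = 1.73e-09), while Angptl2 (-0.98) and Angptl6 (-0.54) fell. On the atglistatin diet 4 rose and 6 fell, against 36.7% of all genes called, again with Apoc3 higher (1.06).

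Genes linked to CREBH moved both ways: 5 of 15 rose and 6 fell on control diet (median -0.38), against 44.2% of all genes called and 22.5% that rose. Apoa4 rose from 63.1 to 527 CPM (log2 fold change 3.06 ± 0.42) and Insig2, a brake on SREBP processing, from 248 to 910 (1.88 ± 0.16). The fatty acid elongases Elovl5 (-1.85) and Elovl2 (-1.78) and the desaturase Fads1 (-1.34) fell. Under corticosterone, atglistatin raised 4, with Sqle at 1.5 and Fads1 at 0.57, and lowered Insig2 (-0.79), against 11.7% of all genes called. Without replicate 41, in which 8 of the 15 were highest, 4 rose and 2 fell, and the median went from 0.23 to -0.03.

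Of the PPARalpha targets 9 of 17 rose and 4 fell on control diet (median 0.40), against 44.2% of all genes called and 22.5% that rose. Plin5, which coats lipid droplets, rose from 48.3 to 191 CPM, and Cyp4a14, a fatty acid hydroxylase, from 226 to 1350. Atglistatin in vehicle mice raised 2 of the 17, Cyp4a14 (log2 fold change 1.89 ± 0.39) and Cyp4a10 (1.29 ± 0.31), against 3.13% of all genes called. Of the glucocorticoid receptor targets 10 of 16 rose and 1 fell on control diet (median 0.89, 44.2% of all genes called), with Fkbp5 going from 9.6 to 310 CPM. Under corticosterone, atglistatin lowered 4 of the 16 and raised 0, against 11.7% of all genes called. Without replicate 41 it lowered 7 and raised 0, against 13.1% of all genes. Of the lipolysis genes 5 of 8 rose and 2 fell on control diet (median 0.40), against the same 44.2%.

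The amino acid and integrated stress response, a known route to Fgf21, had 1 of 8 tested genes higher and none lower on control diet (median 0.19), against 22.5% of all genes that rose: Sesn2 rose by 0.53 ± 0.22 (edgeR adjusted p = 0.0439). Trib3 was at 5.21 and 6.19 CPM and Gdf15, another stress hormone of liver, at 15.9 and 24.2, neither of them called (edgeR adjusted p = 0.509 and 0.0865). On the atglistatin diet 2 rose, Sesn2 (0.61) and Gdf15 (0.84), and Trib3 fell (-1.31), against 36.7% of all genes called.

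Genes driven by insulin, SREBP1c and ChREBP were the list that atglistatin lowered most often under corticosterone: 8 of 14 fell and none rose (median -0.66, 0 over all genes), among them Acaca (-0.87), Pklr (-0.90) and Thrsp (-0.97), against 11.7% of all genes called. Without replicate 41, the lowest of its group for 8 of the 14, again 8 fell and none rose (median -0.64), with Acaca at -0.85, Pklr at -0.82 and Thrsp at -0.89. On control diet corticosterone had raised 6 of these 14, Pklr from 68.7 to 287 CPM among them, and lowered 3, with Scd1 falling by 1.31. Of all genes, 44.2% were called there and 22.5% rose. Angptl8, also known as an insulin-driven gene, was not called between the diets. Of other hepatokine genes 6 of 20 rose and 8 fell with corticosterone on control diet (median -0.08), against 22.5% of all genes that rose and 44.2% called. Tsku, tsukushi, rose from 16.9 to 74.9 CPM, Inhba, the activin A subunit, from 7.38 to 21.3, and Enho, which encodes adropin, fell from 25.7 to 4.57. Enho was higher on atglistatin than on control diet under corticosterone (log2 fold change 0.95 ± 0.25, edgeR adjusted p = 0.00695).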

How the data were processed

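RNA from frozen, powdered liver was made into Lexogen QuantSeq libraries, which read the 3′ end of transcripts, per the labels' protocols. The authors deposited raw counts per gene for 48 mice and a normalised signal table from DESeq2 1.24.0 (R 3.6, GRCm38, per the submitters' processing notes); that deposited signal equals the counts over DESeq2 size factors. No aligner, counter, annotation release or strandedness is named (not given in the sources used here), so reads from overlapping genes may not be separable. Counts were fitted with edgeR 4.0.16 (quasi-likelihood, TMM, all 4 groups together, genes with a count of at least 10 and a total of at least 15 by filterByExpr), with DESeq2 1.42.0 and limma 3.58.1 (voom) as alternatives in R 4.3.3. SE for edgeR is the log2 fold change over the square root of F, and 95% intervals are normal. CPM got a pseudocount of 0.5 before log2, and correlations used 100000 permutations (exact below 10 mice). The model was tested on simulated data. Symbols came from the deposited table for 12491 genes and GENCODE names for 1728, and promoters from RefSeq (3 of 4 genes matched). The members and gene lists were chosen with earlier results of these data known. Genes were named by rule: the 4 members, the 5 most like each, and up to 4 of each list with the smallest p; some genes of the lists are counted but not reported here by name. Labels do not say that mice are independent of cage or litter, so p-values cover the spread between these samples only.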

Additional observations from a re-analysis of the deposited data

Results flagged for a closer look

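Of 8 sets of 10 samples (4 genes in the 2 vehicle groups), 1 held a sample far from the others: Angptl8 in replicate 11 of the vehicle atglistatin group, at 151 CPM with the next at 58.4. Its gap was 0.739 of the group's range, above Dixon's 95% critical value of 0.466. Chance would mark about 1 such set in 20. The corticosterone groups have more than 10 samples, so this check was not applied to them.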

How the results depend on the processing

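Over 13 alternative settings, 212 of 233 values for the 4 genes kept their direction and side of the threshold. Without the samples labelled diabetic, corticosterone on control diet gave 0.88 for Angptl8 and 0.14 for Creb3l3 (neither called), atglistatin under corticosterone gave 0.45 for Fgf21 and 0.01 for Angptl8, and the Creb3l3 interaction was 0.11. Leaving out replicate 41 as well gave 0.07 for Angptl8 and 0.08 for the Creb3l3 interaction. Without the 6 libraries rich in Cpa1, Angptl8 under corticosterone on atglistatin was called at 0.76. The Fgf21 slope on insulin was -0.70 by DESeq2 (adjusted p = 0.0531), -0.39 by limma voom and -0.06 on linear insulin, none called, and that of Angptl4 was 0.10 by voom and 0 on linear insulin. The cause of these shifts was not tested. Leaving out 1 mouse at a time, values ranged from -0.96 to 0.12 for Fgf21 between diets under corticosterone, from -0.97 to 0.03 for its insulin slope, from -2.25 to -1.10 for its interaction, from -0.04 to 0.10 for the Angptl4 slope, from -0.05 to 0.00 for the Creb3l3 interaction and from 0.28 to 0.77 for Angptl8 under corticosterone on atglistatin.

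Mice of different groups that shared a title number showed little likeness (correlations of their deviations from -0.113 to 0.054). These few pairs cannot exclude a shared cage, litter or day. With the replicate block over 2 shared numbers, corticosterone on atglistatin gave 1.61 for Fgf21, 1.55 for Angptl4 and 0.22 for Creb3l3, none called, on 4 libraries; the same libraries with no block, added after seeing the data, gave 1.61, 1.27 and 0.22, and 1.41 for Angptl8, which was called.

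Counts of called genes moved by over 1.5 times as follows. On the insulin slope 636 became 977 by DESeq2, 10 by voom, 0 on linear insulin, 393 without the diabetic-labelled sample and 0 to 787 with 1 mouse left out. For atglistatin in vehicle mice 397 became 899 by voom, 207 without the Cpa1-rich libraries, 4 with the block and 0 on those libraries without it. The interaction's 181 became 359 by voom, 76 without diabetic samples and 64 without the Cpa1-rich libraries. With replicate 41 left out it became 331 by DESeq2, 364 by voom and 120 when the diabetic samples were left out too. Without diabetic samples 5606 became 3614 and 1479 became 609, and 4652 became 56 with the block and 300 without it on the same libraries. Without both the diabetic samples and replicate 41, 1479 became 817. Without replicate 41, DESeq2 called the Fgf21 interaction at -2.35. The fits without replicate 41 by DESeq2 and voom, for the gene lists, or with the diabetic-labelled mice, were chosen after seeing the data.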
